A study of Mus musculus with 4 samples.

Results

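The regions described here are packed chains of eIF4A2 peaks, in which many short enriched intervals follow each other closely along one strand of the genome. Peaks on the same chromosome and strand were chained when no more than 200 bases separated a peak from the ones already joined, and chains of 10 or more peaks were kept. This gave 51 chains with 645 of the 47777 peaks in the list, or 1.35%. Among the listed peaks, only positions chose the members. The list itself holds only peaks above 2-fold, so the fold had a part in which peaks could be chained. How far that limit ties the fold to the size of a chain was not tested. The number of peaks, the span and the gaps of the chains follow from that rule and are given as descriptions.

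The peaks come from eCLIP of feeder-free J1 mouse embryonic stem cells of the 129S4/SvJae strain, grown with serum and leukemia inhibitory factor (LIF). All cells were crosslinked with ultraviolet light of 254 nm at 400 mJ/cm2 before collection. The IP group (2 libraries) was recovered with an anti-eIF4A2 antibody, the input group (2 libraries) was made without that recovery, and neither group carries a genetic change or a drug treatment in its labels. The antibody's specificity cannot be read from these data, because no library from cells without eIF4A2 was analysed. The authors deposited 1 peak list for all 4 libraries, each peak carrying 1 log2 fold (IP over input), without counts, p-values or separate values for the libraries. The spread between replicates, the sequencing depth and the error of any single fold are therefore unknown, and no test over samples could be made. Positions are in the mouse build mm9 and count from 1.

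eIF4A2 is a DEAD-box RNA helicase, an enzyme that uses ATP to open base pairs in RNA, and a close relative of the initiation factor eIF4A1. eIF4A helicases act at the start of translation, where they help to unwind the region ahead of the start codon, and eIF4A2 is also known for its association with the CCR4-NOT complex, which shortens mRNA tails. In eCLIP, a peak marks RNA to which the protein was joined by light, and a protein that touches an RNA at many places along its length can leave a series of peaks.

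The chains formed short, dense blocks of about a kilobase. The median chain spanned 1165 bases, its quartiles being 932.5 and 1374.5 bases and the extremes 393 and 2087 bases, and 35 of the 51 chains were longer than 1000 bases. Peaks covered a median of 58.5% of the span (interquartile range 46.8 to 68.2%). Together the chains spanned 59.6 kb, of which 33.8 kb lay under peaks, and this was 1.98% of all bases covered by the list. The median chain held 11 peaks, and 32 of the 51 chains held 10 or 11. The 645 peaks had a median width of 50 bases (interquartile range 32 to 66), against 32 bases (19 to 47) for all peaks. Peaks in chains of 5 to 9 were about as wide, with a median of 49 bases (32 to 67), so this width is not particular to packed chains. The labels give paired reads of 50 bases, so 1 read could reach more than 1 of these peaks, and how far neighbouring peaks share reads was not tested.

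**Figure D1:**
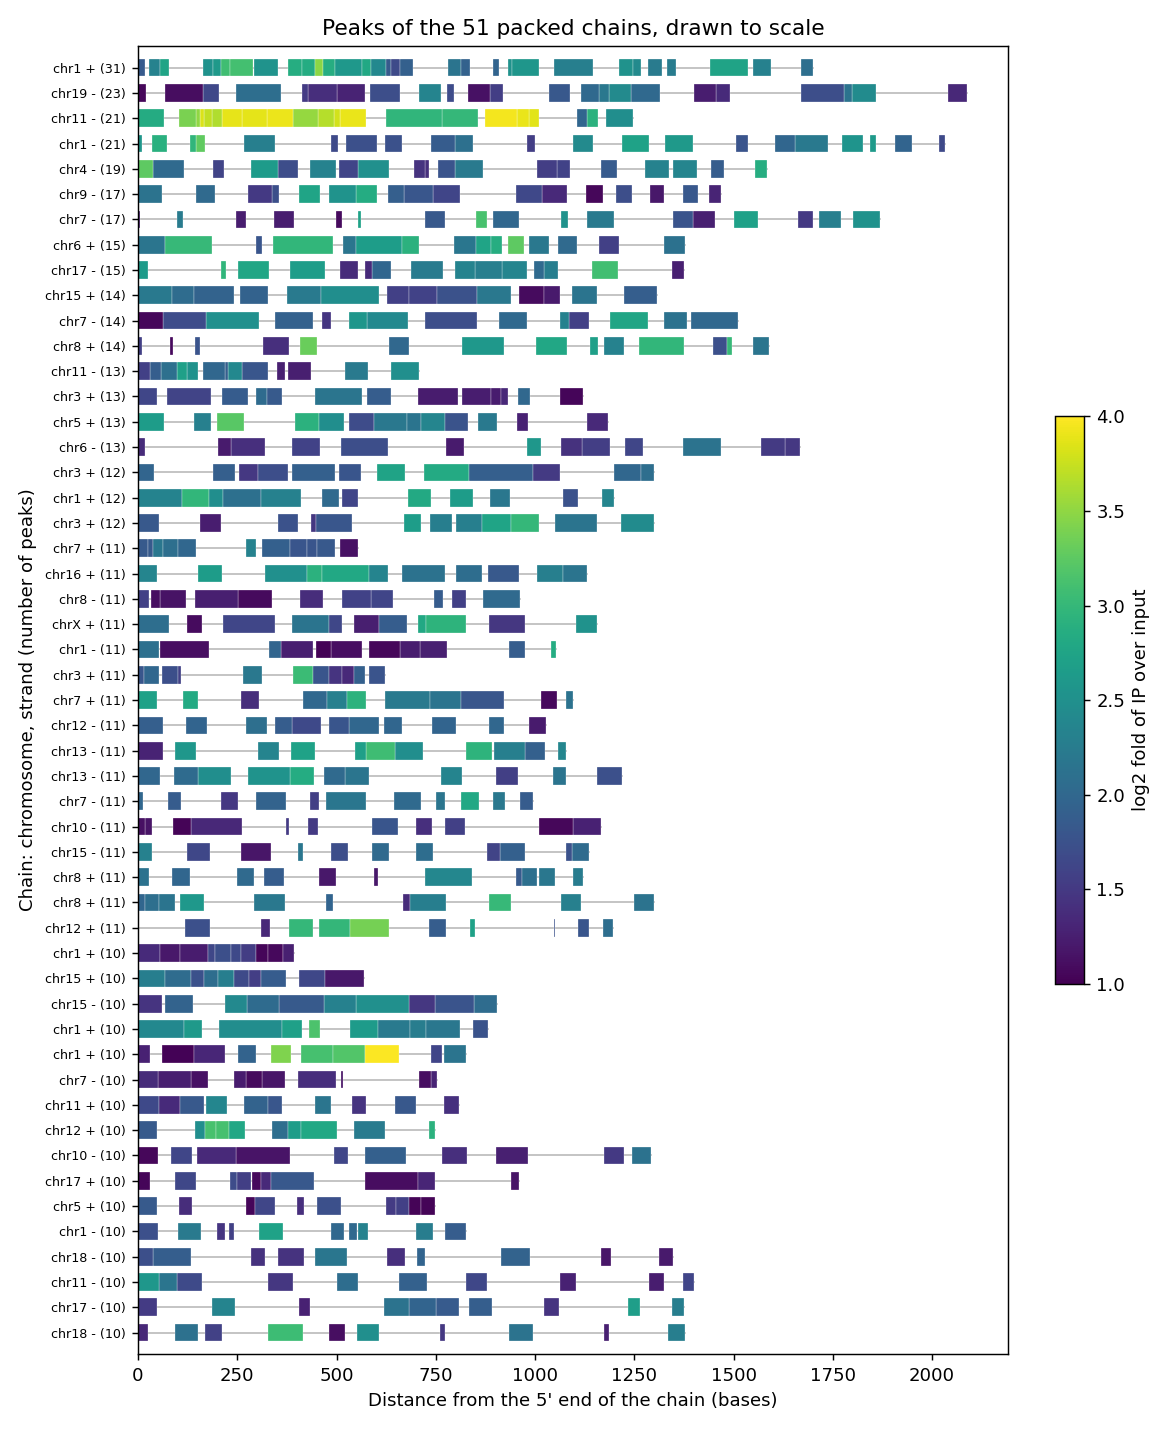
Each row is 1 of the 51 packed chains, drawn to scale from its 5′ end in bases, with boxes for peaks coloured by log2 fold of IP over input and rows ordered by the number of peaks. The chain of 31 peaks is at the top, the chain of chromosome 11 a little below it has the highest median fold, and 1 chain of 10 peaks is covered from end to end.

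The longest chain by number of peaks lay at chr1:88423514-88425212 on the plus strand, with 31 peaks over 1699 bases, 64.7% of which lay under peaks. Its log2 folds ran from 1.68 to 3.47 with a median of 2.51 (interquartile range 2.19 to 2.74), and 25 of its peaks were at 4-fold or more. The nearest other peak of its strand was 76900 bases away. With touching peaks counted as 1 block, the chain of 31 peaks held 15 blocks. That was fewer than the 18 of chr1:64781393-64783424 and the 16 of chr7:52303725-52305592, so the number of peaks is not a number of separate sites. Chain chr19:5842737-5844823 on the minus strand was the longest in bases, with 23 peaks over 2087 bases. Its folds were lower, with a median of 1.69, a minimum of 1.06 and a maximum of 2.43. Chain chr11:69484505-69485752 on the minus strand held 21 peaks in 6 such blocks over 1248 bases, and its median log2 fold, 3.66, was the highest of the 51. Chain chr1:64781393-64783424 on the minus strand also held 21 peaks, spread over 2032 bases, with a coverage of 44.8% and a median log2 fold of 2.21. The fifth by number of peaks was chr4:133308301-133309884 on the minus strand, with 19 peaks, a median of 1.88 and a range of 1.41 to 3.26. Its highest peak was also its 5′-most peak.

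Coverage varied widely among the chains, from open strings of peaks to blocks without a gap. Chain chr1:72871090-72871482 on the plus strand was also the shortest, and its 10 peaks lay end to end over all of its 393 bases (coverage 100%). Its median log2 fold was only 1.31, with a maximum of 1.72. On chromosome 15, chain chr15:34012473-34013040 (plus strand, 568 bases) was covered to 94.2%, with a median of 1.80. On the same chromosome, chain chr15:82729303-82730207 (minus strand, 905 bases) was covered to 90.3%, with a median of 1.99. The second shortest of the 51, chr7:13609808-13610361 on the plus strand, spanned 554 bases with 11 peaks, a coverage of 72.6% and a median of 1.84. At the other extreme of coverage, chain chr18:38748813-38750190 on the minus strand was covered to 32%, chr17:46167932-46169305 on the minus strand to 34.6%, and chr11:22758272-22759672 on the minus strand to 36.1%. Their median log2 folds were 1.84, 1.92 and 1.66. The medians of the most and the least covered chains overlapped. Across the 51 chains coverage and median log2 fold had a Pearson r of 0.14 and a Spearman rho of 0.08, and the number of peaks and the median log2 fold had an r of 0.37 and a rho of 0.34. These are descriptions over chains of the same libraries. Without the 2 chains farthest from the median on the first measure, the r values were 0.28 and 0.43.

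**Figure D2:**
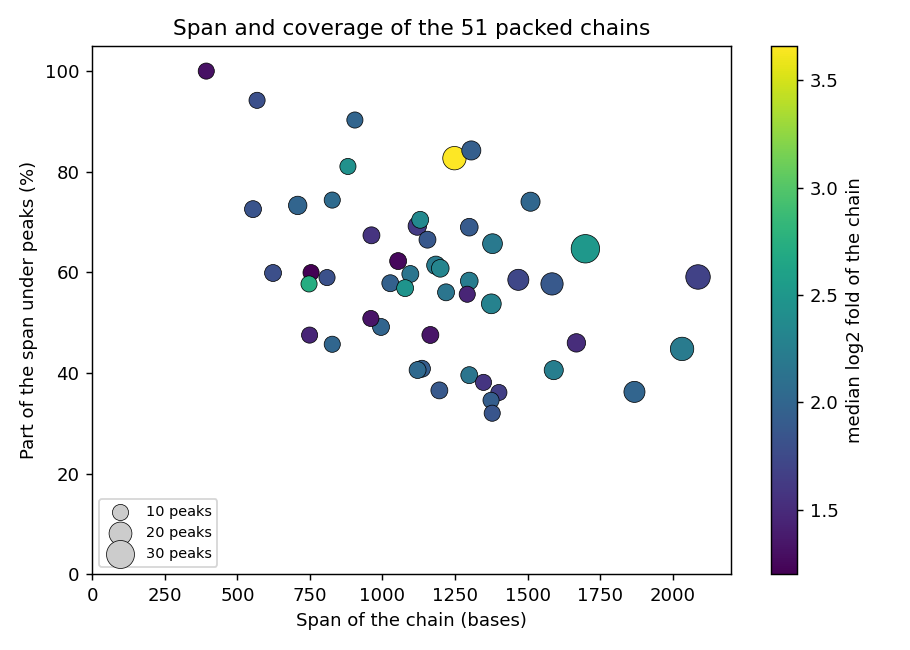
Each circle is 1 packed chain, placed by its span in bases and by the part of that span under peaks in percent, sized by its number of peaks and coloured by its median log2 fold. Coverage runs from 32 to 100%, and the brightest circle, at 1248 bases, is the chain of chromosome 11 with a median of 3.66.

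Within the chains many peaks touched. Of the 594 pairs of neighbouring peaks in the chains, 210 (35.4%) had no base between them, 181 were 1 to 50 bases apart, 107 were 51 to 100 apart and 96 were over 100 apart. Among all 9696 pairs within 200 bases in the list, 1834 (18.9%) touched. The longest unbroken run, 8 peaks over 686 bases at chr15:82729303-82729988, lay in the chain of chromosome 15 named above. The chain of chromosome 11 held a run of 12 peaks over 472 bases at chr11:69485178-69485649, with log2 folds between 3.39 and 3.91. In the chain of 31 peaks a run of 10 spanned 315 bases at chr1:88423892-88424206, and its folds varied more, from 1.68 to 3.47. In 4 of the 51 chains no peaks touched.

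Enrichment in the chains lay above that of the list as a whole. The median log2 fold of the 645 peaks was 1.97 (3.92-fold), with an interquartile range of 1.57 to 2.37, against 1.65 (3.15-fold) for all 47777 peaks. A log2 fold of at least 2, that is 4-fold, was reached by 304 of the 645 peaks, or 47.1% (Wilson 95% interval 43.3 to 51%), and by 28.3% of the list. Such intervals describe counting error alone and treat neighbouring peaks as independent. By chain, the median lay above that of the list in 40 of the 51 chains and below it in 11, and it was at 4-fold or more in 20. Among the 416 chains of 5 to 9 peaks it lay above in 282 and at 4-fold or more in 137. Among the 18 chains of exactly 9 peaks these counts were 14 and 8, so the packed chains did not stand apart from chains of 9 on these counts. No peak of these chains reached a log2 fold of 4. In the list 145 of 47777 peaks did, too small a share for their absence among 645 peaks to set the chains apart.

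The share at 4-fold or more differed step by step with the number of peaks chained. It was 26.5% among the 32509 single peaks, 30.3% among 12133 peaks in chains of 2 to 4, 38.0% among 2490 peaks in chains of 5 to 9, and 47.1% in packed chains. The respective median log2 folds were 1.62, 1.68, 1.82 and 1.97. At the limit itself the order was not kept: the 16 chains of exactly 10 peaks had a median log2 fold of 1.72, with 33.1% of peaks at 4-fold or more, and the 18 chains of 9 peaks just outside had 1.85 and 40.7%. Chains of 10 had a median span of 854 bases and chains of 9 a median span of 863 bases.

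Over all peaks, a log2 fold of at least 3, that is 8-fold, was reached by 39 of the 645 peaks, or 6.05% (Wilson 95% interval 4.45 to 8.16%), against 4.03% of the list. The share was 3.88% of single peaks, 4.33% in chains of 2 to 4 and 3.98% in chains of 5 to 9. Unlike the share at 4-fold or more, it did not rise step by step with chain size. These 39 peaks lay in 17 chains, and the single chain of chromosome 11 at chr11:69484505-69485752 supplied 15 of them. Without that chain the share was 3.85% (24 of 624 peaks), while the median log2 fold was 1.94 and the share at 4-fold or more 45.5%. Over all peaks the share at 8-fold or more was thus below that of the list without this 1 chain, and the share at 4-fold or more was still above it. The 8-fold shares among peaks with an input term over 10, a measure explained with the reads further on, differ from these.

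The chain of chromosome 11 had the highest median of the 51. Its 21 log2 folds had a median of 3.66 (12.6-fold), an interquartile range of 3 to 3.87, a minimum of 1.98 and a maximum of 3.95, and 20 of them were at 4-fold or more. The 5′-most peak was at 2.83 and the 3′-most at 2.47, with the highest values between them. The other 16 peaks in the same stretch of the minus strand, joined at 10000 bases, had a median log2 fold of 1.24. The difference of 2.42 between chain and surroundings was the largest among the 29 chains with at least 3 other peaks in their stretch.

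The next chains by median fold were close to each other. Chain chr12:70473161-70473907 on the plus strand had a median log2 fold of 2.72 over 10 peaks, 9 of them at 4-fold or more and 2 at 8-fold or more. The chain of 31 peaks on chromosome 1 followed with 2.51 and 3 peaks at 8-fold or more. Chain chr13:58502742-58503819 on the minus strand had a median of 2.47, although its 5′-most peak was only at 1.29. Chain chr1:59539022-59539902 on the plus strand had a median of 2.43 and a coverage of 81.0%.

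The highest single peak of all packed chains was not in the chain of chromosome 11. It lay at chr1:136457393-136457476 on the plus strand, with a log2 fold of 3.98 (15.8-fold), in chain chr1:136456820-136457646. This chain of 10 peaks had the widest spread of all 51, from 1.02 to 3.98. Its 4 peaks at 8-fold or more followed one another, at 3.43, 3.11, 3.19 and 3.98, and the 4 peaks on their 5′ side were at 1.27, 1.02, 1.32 and 1.95. Enrichment thus changed sharply within 827 bases, between neighbours that the rule placed in the same chain.

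The remaining peaks at 8-fold or more were scattered. Chains chr6:117856846-117858224 and chr8:123077596-123079185, both on the plus strand, held 2 each. Another 11 chains held 1 each: the chain of 21 peaks on chromosome 1, that of 19 peaks on chromosome 4, chr1:59539022-59539902, chr3:137527552-137528174, chr5:130007155-130008338, chr7:52303725-52305592, chr8:86424040-86425338, chr12:112776444-112777639, chr13:58502742-58503819, chr17:34255291-34256665 and chr18:38748813-38750190. Chain chr7:52303725-52305592, on the minus strand, was the third longest at 1868 bases, and its 17 peaks ran from 1.08 to 3.13 with a coverage of 36.2%. In these 11 chains 1 peak stood above 8-fold while the chain's median stayed between 1.79 and 2.47.

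At the low end, 5 chains held no peak at 4-fold or more. The lowest median log2 fold, 1.20, belonged to chr7:20281656-20282409 on the minus strand, whose 10 peaks all lay between 1.08 and 1.39, the narrowest spread of the 51. The block without gaps on chromosome 1 (median 1.31), chr17:23952395-23953354 on the plus strand (1.32), chr10:62341084-62342248 on the minus strand (1.34) and chr5:129526106-129526854 on the plus strand (1.46) were the others. Chain chr1:180266863-180267916 on the minus strand had the second-lowest median, 1.25, but 1 of its peaks reached 2.84. Dense packing therefore occurred at folds just above the limit of the list as well as at 12.6-fold.

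**Figure D3:**
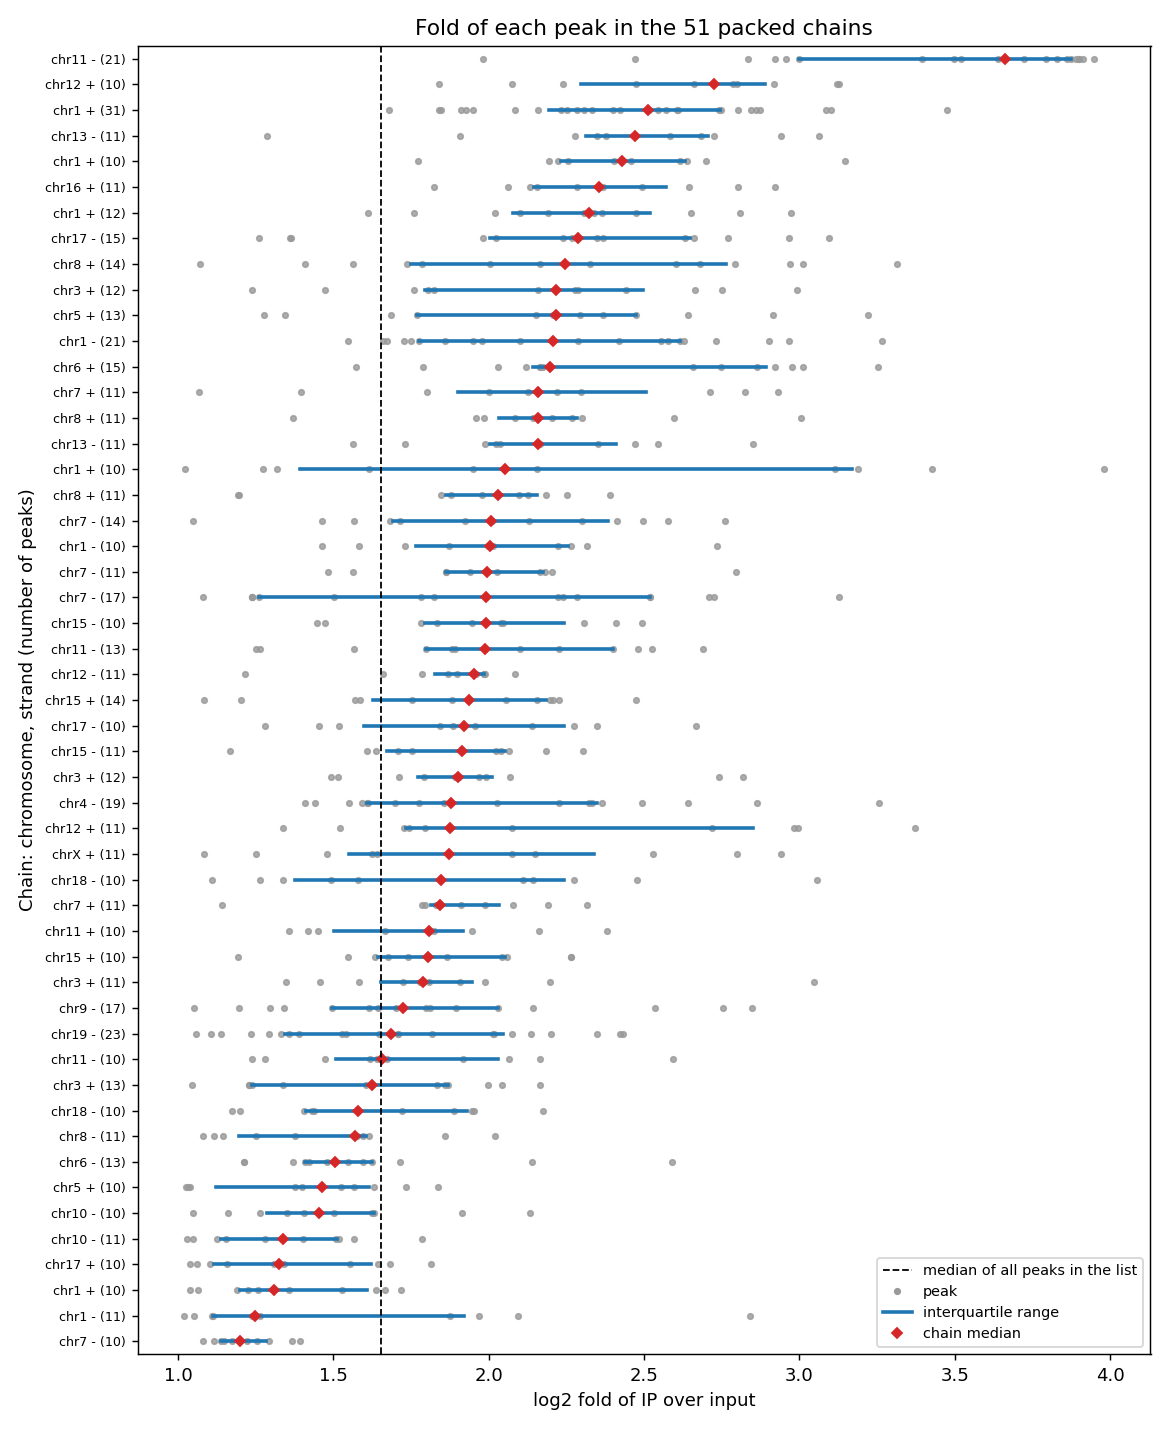
Each row is 1 packed chain with the log2 fold of IP over input of its peaks (grey points), the interquartile range (blue line) and the median (red diamond), ordered by median. The dashed line is the median of the whole list, 1.65, and the chain of chromosome 11 at the top lies apart with a median of 3.66.

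Within a chain the fold had a local pattern. Touching neighbours differed by a median of 0.23 on the log2 scale (210 pairs), neighbours 1 to 50 bases apart by 0.41, those 51 to 100 apart by 0.43 and those over 100 apart by 0.52 (96 pairs). Pooled over the packed chains, the Pearson correlation of the folds of neighbours fell from 0.86 for touching pairs to 0.17 for the widest gaps, and Spearman's rho from 0.82 to 0.16. Differences in level between chains enter these pooled correlations. In chains of 2 to 9 peaks the corresponding differences were 0.22, 0.37, 0.42 and 0.42. There the Pearson correlation fell from 0.65 to 0.28 and rho from 0.61 to 0.27. Pairs share libraries, transcripts and possibly reads and are not replicates. The spread within a chain, from its lowest to its highest peak, had a median of 1.38 on the log2 scale.

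**Figure D4:**
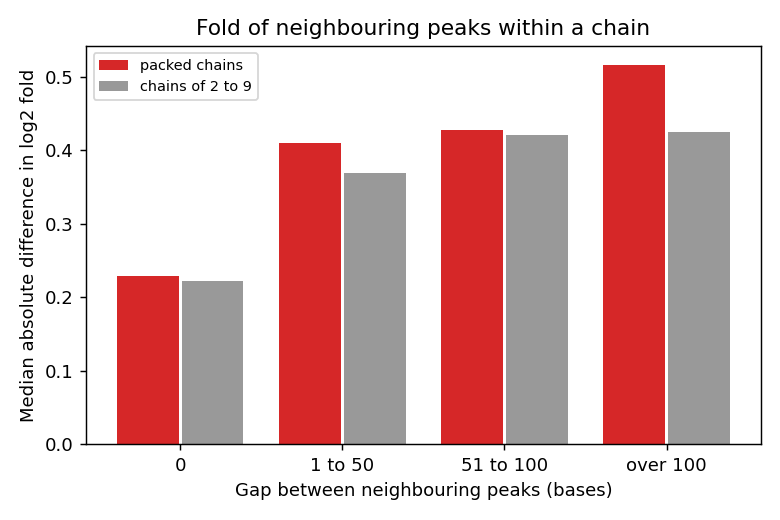
Bars give the median absolute difference in log2 fold between neighbouring peaks of one chain, by the gap between them in bases, for packed chains (red) and chains of 2 to 9 peaks (grey). The difference in packed chains runs from 0.23 for touching peaks to 0.52 for gaps over 100 bases.

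No common direction of fold along the RNA was seen, where 5′ and 3′ follow the strand given for the peaks. In 25 chains the peak at the 5′ end had the higher fold of both ends, and in 26 the one at the 3′ end, with a median difference of -0.02 on the log2 scale. Averaged over equal groups of peaks at either end, the 5′ side was higher in 28 chains and lower in 23, with a median difference of 0.11. The highest peak of a chain lay toward the 5′ end in 12 chains, in the middle in 25 and toward the 3′ end in 14, with the peaks of each chain divided into 3 equal parts.

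The space around the chains was uneven. On the 5′ side, the next peak of the same strand was a median of 53.8 kb away (interquartile range 7.72 to 172 kb), and on the 3′ side it was a median of 3.64 kb away (0.404 to 11.8 kb). The 5′ gap was the larger in 41 of the 51 chains, 23 of 25 on the plus strand and 18 of 26 on the minus strand. No same-strand peak lay within 10000 bases on the 5′ side of 36 chains, whereas this held on the 3′ side of 13. The 5′ gap was the larger for 73.8% of chains of 5 to 9 peaks, 60.5% of chains of 2 to 4 and 47.2% of single peaks. Where transcripts start in mm9 was not analysed here, so this is an order of peaks and not a position within a gene.

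Peaks next to a packed chain were mostly less enriched than the chain. In stretches joined at 10000 bases, 40 of the 51 chains had other same-strand peaks around them and 29 had at least 3. In 23 of these 29 the median log2 fold of the chain was above that of the other peaks, and in 6 it was below, with a median difference of 0.32 (interquartile range 0.04 to 0.49). Not all of the 29 had separate surroundings. The chains of chromosome 10 shared the same 5 other peaks and those of chromosome 18 the same 3. Chains chr8:86424040-86425338 and chr8:86462249-86463369 shared the same 37. The 529 surrounding peaks had a median log2 fold of 1.68, with 33.6% at 4-fold or more, against 28.3% of the list. Of the 529, 161 lay around the single chain chr8:123077596-123079185, with a median of 2.20, so the pooled values lean on that stretch. The clearest exception was the low chain of chromosome 7 at chr7:20281656-20282409, at 1.20 against 1.5 for the 29 peaks around it. Another 11 chains stood alone in their stretch, among them the chain of 31 peaks.

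The fold values also carry a trace of the reads behind them. After 1 constant of 0.24 on the log2 scale is subtracted, every deposited value equals the log2 of a ratio of whole numbers (relative tolerance 2e-09, denominators up to 2000), as a fold of counts scaled by depth would. The smallest whole numbers that give a value are called here its IP term and input term, and if the folds are such ratios the counts cannot be lower than these terms. A divisor shared by both counts would make the terms smaller than the counts. A small term, or a small sum of terms, therefore need not mean few reads. In packed chains the median input term was 25 (interquartile range 13 to 47) and the median IP term 85 (44 to 156). Over the list they were 4 (1 to 10) and 12 (5 to 27), and for single peaks 3 and 9. An input term of 1 occurred in 16 of the 645 peaks (2.48%) and in 27.8% of the list. Summed over a chain, the IP terms came to between 283 for chr11:22758272-22759672 and 8323 for the chain of chromosome 11.

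The terms and the fold both moved with chain size, and the fold was also compared among peaks with larger terms only. Among peaks with an input term over 10, 221 of 508 in packed chains (43.5%) were at 4-fold or more, against 14.5% of 11649 in the list, 28.4% in chains of 5 to 9 peaks and 6.52% of single peaks. Their median log2 folds were 1.91 in packed chains, 1.48 in the list and 1.35 for single peaks. At 8-fold or more were 27 of these 508 peaks (5.31%), against 0.592% of the list, 1.47% in chains of 5 to 9 peaks and 0.104% of single peaks. Without the chain of chromosome 11, 14 of 489 (2.86%) remained at 8-fold or more. The restriction was chosen after the terms had been seen. It acts on the denominator of the fold itself, and under it the share of the list at 4-fold or more went from 28.3 to 14.5%. The 3 chains with the highest median input terms, 135 on chr1:72871090-72871482, 119.5 on chr17:23952395-23953354 and 76.5 on chr7:20281656-20282409, were all among the 5 with the lowest medians, and here too the input term is the denominator of the fold.

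**Figure D5:**
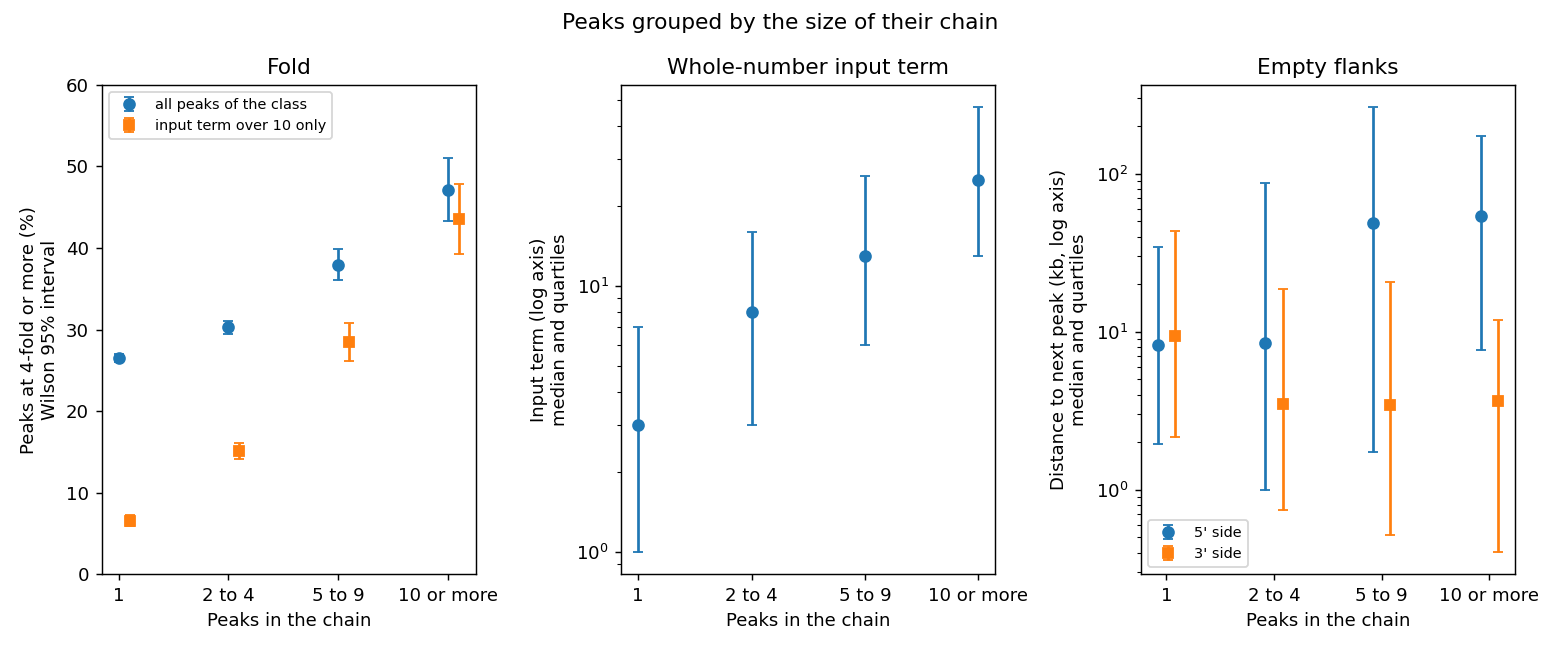
Peaks are grouped by the number of peaks in their chain, with the share at 4-fold or more in percent (left, Wilson 95% interval, all peaks and those with an input term over 10), the input term (middle, log axis) and the distance to the next peak of the strand in kb (right, log axis), the last 2 as medians with quartiles. The share of all peaks goes from 26.5 to 47.1%, the input term from 3 to 25, and the 5′ distance from 8.22 to 53.8 kb.

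The chains were spread over 18 of the 22 chromosomes with peaks, 25 on the plus and 26 on the minus strand. Chromosome 1 held 8 of them with 115 peaks, 4% of its peaks, and chromosome 7 held 6. Chromosome 2 held none among 3871 peaks and chromosome 14 none among 1472. The other chromosomes without a chain, M with 7 peaks and Y with 6, had too few peaks for a chain of 10. In 5 places 2 neighbouring chains of one strand lay within 500 kb of each other, on chromosome 10 (medians of 1.34 and 1.45, 6.77 kb apart), chromosome 18 (1.84 and 1.58, 9.24 kb apart), chromosome 8 (2.16 and 2.03, 36.9 kb apart), chromosome 13 (2.16 and 2.47, 273 kb apart) and chromosome 5 (1.46 and 2.22, 480.3 kb apart). No peak of the opposite strand lay within the span of any packed chain, and only chr13:58502742-58503819 had opposite-strand peaks within 1000 bases, namely 2. How often this holds for other peaks of the list was not counted, so it cannot be called a trait of packed chains.

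A chain of this length is longer than most exons. The positions could not be set against exons, because the annotation at hand is for GRCm38 and not mm9, but lengths can be compared without coordinates. In GENCODE M21, 3.03% of 175649 internal exons of protein-coding transcripts were at least as long as the shortest chain (393 bases), and 0.566% were at least as long as the median chain (1165 bases). For last exons these shares were 74.0% and 41.8%, for first exons 16.0% and 1.58%, and for the only exon of single-exon transcripts 96.1% and 29.9%. Whether the chains follow exons was not tested, and a chain can also cross a splice junction or lie in an intron.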

How the data were processed

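Members and comparisons were chosen with earlier results of these data known. Per the labels' protocols, 2 IP and 2 input eCLIP libraries were sequenced as biological replicates. The submitters' processing notes name STAR 2.6.1b, cutadapt 1.18 and the build mm9. How peaks were called, filtered for significance and combined over replicates is not given in the sources used here. Values in the deposited list are the authors' log2 fold of IP over input per peak, read as log2 from the values (none at or below 1, a 2-fold limit) since the list has no header. Starts were changed to count from 1, and peaks were chained along each strand at 200 bases. Coverage is the summed peak width over the span. The constant behind the folds was the one that gave the smallest whole-number terms, taking the commonest value as a simple ratio. In 47777 simulated peaks, all 50 implanted chains and 100% of simulated ratios were recovered. Both were built to meet the rule, so this checks the code alone and not what the deposited folds are. Chains named in the text are the 5 with most peaks, the 5 highest and 5 lowest medians, the 3 highest and 3 lowest in coverage and in span, and those with a peak at 8-fold or more; others were named after their values were seen. No test was run, since the list holds no values per library. The annotation at hand is for GRCm38, so genes and sequences under the chains, gene lists and marker genes were not analysed here. The tables were computed with pandas 2.3.3, numpy 2.4.6 and scipy 1.17.1 in Python 3.11.15, and figures were drawn with matplotlib 3.10.9.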

Additional observations from a re-analysis of the deposited data

How the results depend on the processing

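The rule sets the size of the group, and the fold varied less than the counts. Of 70 alternative values, 27 stayed within the set range (1.5 times for counts, otherwise the 95% interval of the value in the report) and 43 did not. Joining at 100 bases gave 19 chains and 246 peaks (median span 914 bases, coverage 73.3%, median log2 fold 2.04, 52.8% at 4-fold or more and 10.6% at 8-fold or more). Joining at 300 bases gave 83 chains and 1043 peaks (1363 bases, 45.7%, 1.89), and at 500 bases 112 chains and 1454 peaks (1613 bases, 37.9%, 1.90). A minimum of 8 peaks gave 101 chains and 1063 peaks with a median span of 941 bases. A minimum of 12 gave 19 chains and 309 peaks (1379 bases, median log2 fold 2.12, 56.0% at 4-fold and 8.74% at 8-fold or more). Leaving out peaks under 20 bases gave a median log2 fold of 2.02 and 52.0% at 4-fold or more. Merging touching peaks before chaining left only 17 chains and 204 peaks (1468 bases, 49.1%, 2.03, 53.4% at 4-fold or more), so most chains reach 10 peaks through peaks that touch. Each merged run kept its highest fold, a choice that acts on the fold itself. The list under the same merging had 28.6% at 4-fold or more. Requiring a log2 fold of at least 1.5 gave 26 chains and 333 peaks (2.23, with 67.9% at 4-fold and 9.91% at 8-fold or more), a limit that acts on the fold itself; the list under it had 46.5% and 6.60%. Leaving out 1 chain and restricting the input term were chosen after seeing the data. Leaving out the chain of chromosome 11 moved the share at 8-fold or more to 3.85%, and an input term over 10 moved none of the 3 fold results beyond its interval. Both together gave a median log2 fold of 1.89, with 41.5% at 4-fold and 2.86% at 8-fold or more; the list with an input term over 10 had 14.5% and 0.592%. The difference between the 5′ and 3′ ends changed sign, from -0.02 to 0.11 when groups of peaks at the ends were averaged, inside its interval. The causes were not tested. Alternatives on exonic share, genes and GC content were not run, because no mm9 reference was used here. No paired analysis was possible because the list has no values per library, and no replicate could be left out for the same reason.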

Other observations

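The order of the deposited list carried information on the chains. The list runs through 44 blocks, one for each chromosome and strand, and none of the 40 blocks of more than 10 peaks is sorted by position or by fold. Peaks of packed chains stood early, at a median of 3.85% of the way through their block (interquartile range 1.61 to 9.08%), and 498 of the 645 (77.2%) were in the first 10%. Peaks of chains of 5 to 9 stood at a median of 12.1%, those of chains of 2 to 4 at 27.7% and single peaks at 63.0%. What the order stands for is not given in the sources used here. Over blocks of more than 50 peaks, the median Spearman correlation of place in the block was -0.72 with the IP term and -0.36 with the log2 fold, as descriptions across peaks. In 31 chains at least 1 peak was in the first 1% of its block. The chains with the latest peaks were chr11:22758272-22759672, with a median place of 22.9%, chr7:87464865-87465859 with 20.3% and chr7:52303725-52305592 with 17.3%. Their coverage was 36.1, 49.1 and 36.2%, and their median input terms were 9.5, 10 and 7. Among the first 10% of each block, 56.0% of peaks in packed chains, 54.3% in chains of 5 to 9 and 50.8% of all peaks were at 4-fold or more. The distance between packed chains and all peaks was smaller there than over the whole list (47.1 against 28.3%).

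The surroundings of 3 chains of 14 peaks differed, as did their coverage, which was 40.6, 74.0 and 84.2% in the order given here. Chain chr8:123077596-123079185 lay in a stretch of 175 peaks joined at 10000 bases, and the 161 peaks of that stretch outside it had a median log2 fold of 2.20, close to the chain's 2.25. Chain chr7:140313483-140314992 on the minus strand lay in a stretch of 74 peaks and was its 5′-most part. Its median log2 fold was 2.01, and the 60 peaks on its 3′ side had a median of 1.38. Chain chr15:81415838-81417143 on the plus strand had no other peak of its strand within 10000 bases, and its median log2 fold was 1.94.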
